A study of Mus musculus with 2 samples.

Results

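The genes of the T cell receptor were read by 18 of the 45037 probe sets on 2 one-colour expression arrays of mouse thymocytes. A probe set was taken when its gene symbol in the platform annotation, or any of several symbols, named a segment of the alpha, beta, gamma or delta receptor locus. By locus the rule gave 10 alpha, 3 beta, 5 gamma and 0 delta probe sets, under 11 gene symbols of the 19324 that the annotation gives to the array. Variable (V) segments accounted for 17 of them and the alpha locus as a whole, Tcra, for 1. Joining, diversity and constant segments were named by 0 probe sets, so every value below stands under the name of a variable segment or of Tcra. The RefSeq gene table holds 274 receptor entries, 8 of them constant regions, and the 18 probe sets stand for 11 of those entries. In that table the alpha and delta entries lie together on chromosome 14, the beta entries on chromosome 6 and the gamma entries on chromosome 13.

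The T cell receptor is a pair of chains, alpha with beta or gamma with delta. Each chain's variable part is assembled in the thymus by joining separate V, J and, for beta and delta, D segments of the locus with the RAG recombinase. Beta, gamma and delta rearrange in double-negative thymocytes, which have neither CD4 nor CD8, and a functional beta chain is first displayed with the invariant pre-T alpha chain. Alpha rearranges later, at the double-positive stage, and because the delta segments lie inside the alpha locus, that step removes them. Unrearranged receptor segments can also be transcribed.

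The cells came from C57BL/6J mice and were the fraction without lineage markers, left after bead depletion of thymocytes and described as kept in standard medium. The series names them double-negative thymocytes. One array was titled DKO and the other TKO. By the design text, mice of both titles lacked Cdkn2a and Ring1 (Ring1A) and carried floxed Rnf2 (Ring1B), and only the TKO mice carried the Lck-Cre recombinase, which is driven in T-lineage cells. The samples' genotype field reads otherwise, giving loss of Ring1A and Ring1B for DKO and a further loss of Cdkn2a for TKO. Ring1 and Rnf2 are ubiquitin ligases of Polycomb repressive complex 1, which silences developmental genes, so the comparison addresses receptor gene expression in thymocytes of these 2 genotypes.

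Because each title had 1 array, the difference has no replicate check, no test was possible and no p-value is given. Signals are the MAS5 intensities as deposited, on a linear scale. A floor was set at the median signal of each array (68.8 under the DKO label and 71.8 under the TKO label), a signal below it was raised to it, and a probe set below it on both arrays has no ratio. Ratios are given on the log2 scale as TKO-labelled minus DKO-labelled, and a difference of 2-fold or more was the rule for calling a probe set higher or lower. Cdkn2a had a signal of 679 under the DKO label and 18.5 under the TKO label. This goes against the design text and is in the direction that the genotype field gives. Rnf2 had 4149 and 4384, and Ring1 133 and 147, so the targeted genes do not settle which genotype text holds, and each array is therefore referred to by its label. The sources used here do not say whether their probes lie inside the deleted parts. Xist had 124 under the DKO label and 16502 under the TKO label, and the Y-linked Eif2s3y had 1711 and 55.3, so sex cannot be told apart from genotype in any value below.

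Receptor probe sets did not move in 1 direction. Of the 18, 11 were above the floor on both arrays and 7, all of the alpha locus, were below it on both. Of the 11 measured, 0 were at least 2-fold higher under the TKO label, 1 was at least 2-fold lower and 10 were neither. Over all 23894 measured probe sets, 2.91% were at least 2-fold higher and 0.578% at least 2-fold lower, so a single lower member among 11 is a small count to set beside that background. Among these 11, the sign of the log2 ratio separated alpha from beta and gamma. All 3 measured alpha probe sets were positive, and all 3 beta and all 5 gamma probe sets were negative. The median over the 11 was -0.44, against -0.02 over all measured probe sets, of which 53.2% were negative. In a bulk sample, fewer cells of a type and less RNA per cell cannot be told apart.

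**Figure D1:**
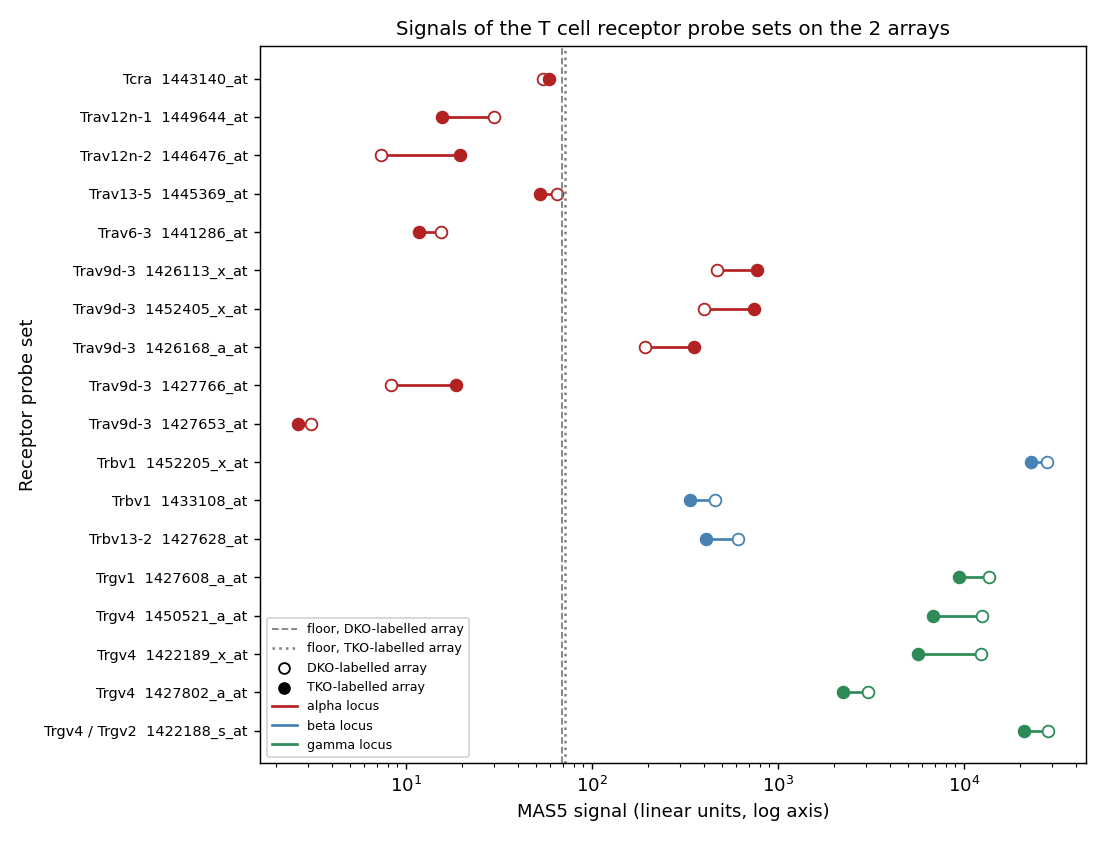
MAS5 signal (log axis) of each of the 18 receptor probe sets under the DKO label (open points) and the TKO-labelled array (filled points), coloured by locus, with the floor of each array as a vertical line. The 3 measured alpha probe sets have the filled point to the right, all beta and gamma probe sets have it to the left, and 7 alpha probe sets lie left of both floors.

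The gamma locus held the probe set with the largest difference. Trgv4 is a variable segment used by gamma-delta T cells, and it was named by 3 probe sets alone and by 1 together with Trgv2. The probe set 1422189_x_at of Trgv4 gave a signal of 12421 under the DKO label and 5656 under the TKO label. It was the member counted as lower, by 2.20-fold (log2 ratio -1.13), and just inside the rule of size. The next Trgv4 probe set, 1450521_a_at, lay just outside it, with signals of 12568 and 6859 and a log2 ratio of -0.87. Both were read as lower under the TKO label, on either side of the 2-fold line.

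The other gamma probe sets had smaller negative ratios. The third Trgv4 probe set, 1427802_a_at, had 3056 under the DKO label and 2253 under the TKO label (log2 ratio -0.44). The probe set 1422188_s_at, shared by Trgv4 and Trgv2, had 28379 and 21134 (log2 ratio -0.43). Trgv1, read by 1427608_a_at, had 13677 and 9425 (log2 ratio -0.54). The gamma median was thus -0.54, a 1.45-fold difference, over a range from -1.13 to -0.43. Probe sets that name the same Trgv4 segment spanned -1.13 to -0.44. This is a wide span beside the robust SD of 0.21 for the log2 ratio of a single probe set. The SD was taken over 4794 genes from the difference between the 2 probe sets of highest mean signal, divided by the square root of 2. That SD comes from the same 2 hybridisations and holds no error between animals or RNA preparations.

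In the order of the RefSeq table, Trgv4 lies between Trgv7 and Trgv6 in the group of variable segments that precedes the constant region Trgc1. Trgv2 and Trgv1 lie next to each other towards the far end of the locus, before Trgj4 and Trgc4. Negative ratios were therefore found under segment names from both ends, which does not place the difference along the locus. The suffix of a probe set says how unique its probes were designed to be: _a_at probe sets match several transcripts of 1 gene, _s_at probe sets match several genes, and _x_at probe sets hold some probes that can bind other sequences. The member counted as lower is of the _x_at kind. The 3 gamma probe sets of the _a_at kind, 2 of Trgv4 and that of Trgv1, ran from -0.87 to -0.44, and 0 of these 3 passed 2-fold. The position of the probes within the transcripts was not given either, so a probe set under 1 variable segment may also read transcripts that carry another.

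The strong gamma signals matter for how the ratios are read, because ratios drifted below 0 among strong signals on these arrays. Over the 3024 measured probe sets with a mean log2 signal at least that of the lowest gamma probe set, the median log2 ratio was -0.11 and 69.4% were negative. Only 7 of those 3024 were at least 2-fold lower, and 1422189_x_at was 1 of them. By rank, 5 of the 3024 had a lower ratio than 1422189_x_at and 8 a lower ratio than 1450521_a_at. Trgv1 had 43 probe sets below it, 1427802_a_at had 89 and 1422188_s_at had 99, which places each of the 5 gamma probe sets within the lowest 3.27% of these ratios. These ranks leave the trend of ratio on signal in. They also include probe sets dimmer than all gamma probe sets but the lowest, so they may overstate how extreme the brighter ones are. With the trend of ratio on signal removed by lowess, the gamma median was -0.41, 1422189_x_at was at -1.03 and the shared probe set 1422188_s_at was at -0.25.

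**Figure D2:**
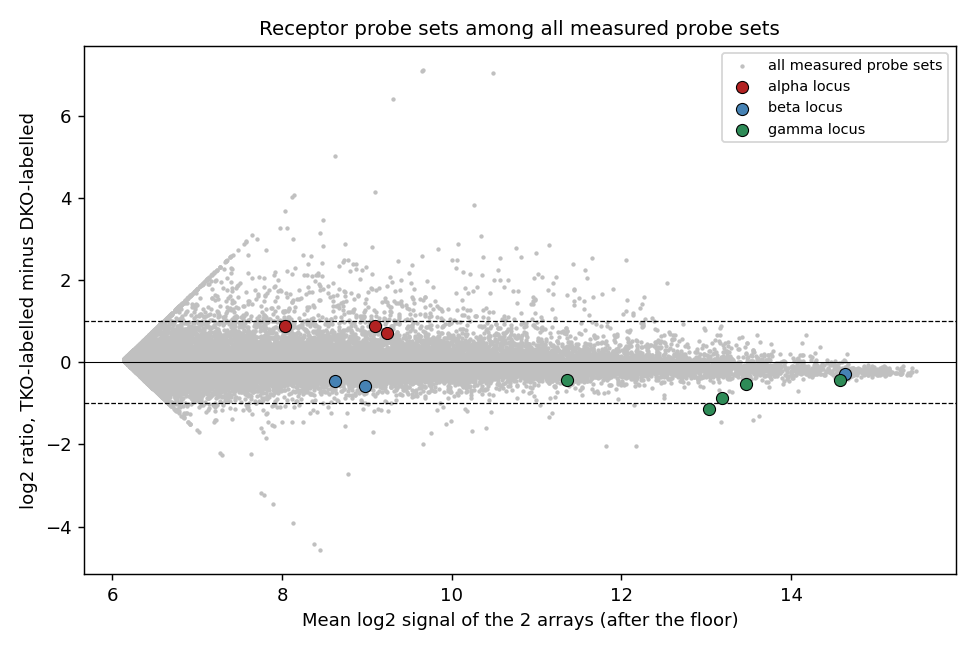
log2 ratio (TKO-labelled minus DKO-labelled) against the mean log2 signal of the 2 arrays after the floor, for all 23894 measured probe sets in grey and the 11 measured receptor probe sets in colour by locus; dashed lines mark 2-fold. One gamma probe set lies below the lower line at -1.13, and the other coloured points lie between the lines.

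The beta locus gave 3 negative ratios, all under 2-fold. Trbv1, a variable segment of the beta chain, was read by 2 probe sets. The first, 1452205_x_at, had a signal of 28086 under the DKO label and 23038 under the TKO label (log2 ratio -0.29). The second, 1433108_at, had 461 and 338 (log2 ratio -0.45). Both Trbv1 probe sets were therefore lower under the TKO label by less than 1.5-fold. Their signals of 28086 and 461 under the DKO label lie far apart, so the 2 may not read the same transcripts. Trbv13-2, another beta variable segment, had 615 and 414 under 1427628_at (log2 ratio -0.57). The beta median was -0.45, or 1.36-fold.

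Of the beta values, that of 1452205_x_at depended most on the scaling. It was at -0.11 after lowess and -0.08 after quantile normalization, and 392 of the 3024 probe sets of strong signal had a lower ratio. The ratio of 1433108_at shrank to -0.10 when each array's 75th percentile was the floor, which lay above its TKO-labelled signal. Trbv13-2 stayed between -0.61 and -0.51 over the 8 settings. Over all measured probe sets, 4.22% had a lower ratio than Trbv13-2, 7.73% than 1433108_at and 17.4% than 1452205_x_at.

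The measured alpha probe sets differed in sign from those of beta and gamma. Trav9d-3, a variable segment of the alpha chain, was named by 5 probe sets, and 3 of them were measured. The probe set 1452405_x_at had 402 under the DKO label and 744 under the TKO label, 1.85-fold higher (log2 ratio 0.89). The probe set 1426168_a_at had 193 and 354, 1.83-fold higher (log2 ratio 0.87). The probe set 1426113_x_at had 470 and 772, 1.64-fold higher (log2 ratio 0.72). All 3 were higher under the TKO label, by a like amount and short of 2-fold. They stand under 1 symbol and are not counted as 3 separate segments, and 2 of the 3 are of the _x_at kind. Under the DKO label the 5 probe sets of this symbol ran from 3.09 to 470. They may therefore not all read the same transcripts, and which segments the 3 measured ones read is not known here.

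Among all measured probe sets the 3 Trav9d-3 ratios stood at percentiles 96.2, 96.1 and 94.4. Their values over the settings run ranged from 0.68 to 0.92, so none passed 2-fold in any of them. Among the 11 probe sets measured here, alpha values did not overlap beta or gamma values under any setting: the lowest of these alpha values was 0.68 and the highest beta or gamma value was -0.08. With the 25th percentile as floor, 3 further alpha probe sets had a ratio, Tcra at 0.09, Trav13-5 at -0.32 and Trav12n-1 at -0.48 or below, and the alpha median was then 0.40. Trav13-5 then lay within the range of the beta and gamma values, so with that floor the loci overlapped. The separation at the main floor compares probe sets on 2 arrays and is no test of genotype.

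The remaining alpha probe sets had no ratio. The Tcra probe set had 55.0 and 58.6 under the DKO and TKO labels, and Trav13-5 had 65.2 and 52.4, each below the floor of its array. Trav12n-1 had 29.8 and 15.7, Trav12n-2 had 7.35 and 19.6, and Trav6-3 had 15.5 and 11.8. The other 2 Trav9d-3 probe sets had 8.34 and 18.7, and 3.09 and 2.63. A signal below the floor was not counted as measured and says nothing further about the segment. The alpha result therefore rests on 1 of the 6 alpha symbols.

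No probe set carried a delta name, so the delta locus could not be compared with the others here. The annotation left 9160 probe sets without a gene, and these stay unnamed. Constant regions, which follow the variable part in a rearranged chain, were likewise not read under their own names.

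**Figure D3:**
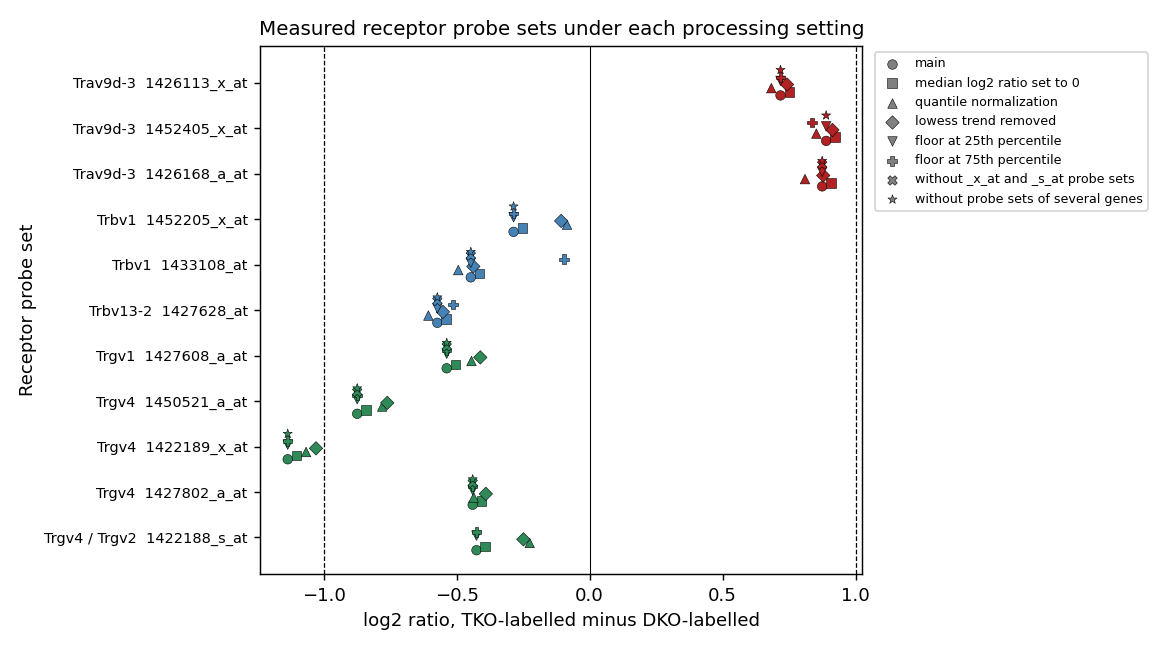
log2 ratio (TKO-labelled minus DKO-labelled) of the 11 measured receptor probe sets under the main setting and 7 alternatives, 1 symbol shape per setting, coloured by locus; dashed lines mark 2-fold. Alpha values stay between 0.68 and 0.92, and beta and gamma values stay below 0 under each setting.

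Genes beside the loci had ratios of both signs around each locus, and their medians were nearer 0 than those of the receptor probe sets. For each locus the 3 nearest measured genes on either side, and any inside, were taken from the RefSeq order, a choice made after the receptor values were seen. Beside the alpha locus the 6 genes had a median of 0.17 and ran from -0.61 for the transcription factor gene Sall2 to 1.13 for Abhd4, a lipase gene (842 under the DKO label to 1842 under the TKO label). Dad1, the gene next after the alpha locus, which encodes a subunit of the oligosaccharyltransferase, had 5850 and 4623 (log2 ratio -0.34). Abhd4 was the 1 neighbour of 19 in all that passed 2-fold. Around beta, the 7 genes ran from -0.33 to 0.18, and around gamma, the 6 genes ran from -0.62 to 0.17, with medians of -0.07 and -0.13. Each of the 3 neighbour medians was on the same side of 0 as the median of its locus. Over all measured genes the median was -0.03 and 53.5% were negative, so a median slightly below 0 is not particular to these neighbours. Trypsinogen gene Prss2, which lies inside the beta locus, was near the floor at 67.6 and 73.8.

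The chains that carry the receptor to the surface gave ratios on the same side of 0 as beta and gamma. A list of 12 CD3, pre-T-cell receptor and proximal signalling genes had 10 measured members, of which 0 were higher, 0 lower by 2-fold and 9 negative, with a median of -0.41. Over all 11280 genes measured, each by its probe set of highest mean signal, 3.58% were at least 2-fold higher and 0.532% lower, and the median was -0.03. Ptcra, the pre-T alpha chain that pairs with beta, had 4028 under the DKO label and 2564 under the TKO label (log2 ratio -0.65). Among the CD3 chains, Cd3d had -0.73, Cd3g -0.70, Cd247 -0.48 and Cd3e -0.18. The adaptor Lat had -0.49. A weaker Cd247 probe set was at 0.12.

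Genes of V(D)J recombination and end joining had ratios of both signs. Of 12 measured members of 14 listed, 0 passed 2-fold either way, 6 were negative and the median was -0.01, turning to 0.02 after lowess or after the median ratio was set to 0. With the 75th percentile as floor, 9 members were measured and their median was -0.22. The recombinase genes Rag1 (11324 to 9732) and Rag2 (2118 to 1933) had log2 ratios of -0.22 and -0.13. Dntt, which adds untemplated bases at the joints, had 18810 and 13797 (log2 ratio -0.45). Polm, a polymerase that fills gaps at the joints, had 0.56, the Ku subunit Xrcc6 had -0.51, with a second probe set at 0.08, and the kinase Prkdc had -0.29.

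Regulators that act on the receptor loci were under 2-fold by the probe set of highest mean signal of each gene, although 1 of the 3 probe sets of the cohesin gene Rad21 was at 1.18, against 0.30 for the one used. Of 18 measured of 20 listed, 13 were negative and the median was -0.13, or -0.03 after lowess. Id2, an inhibitor of E proteins, had 2405 under the DKO label and 4608 under the TKO label (log2 ratio 0.94). Il7r, the interleukin-7 receptor chain that promotes opening of the gamma locus, had 5159 and 7665 (log2 ratio 0.57). Runx1 had -0.65 and Bcl11b -0.32.

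Genes of the gamma-delta T cell programme had a median on the other side of 0 from the gamma segments. Of 14 measured genes, 3 passed 2-fold upwards, 0 downwards and 11 neither way, and 5 were negative. Over all measured genes, 3.58% passed upwards and 0.532% downwards. Their median was 0.31, and 0.03 when the 75th percentile was the floor. The 3 were Gpr183 (53.5 to 169, at least 2.46-fold), Blk (444 to 1006, 2.27-fold), which B cells also express, and Egr3 (134 to 294, 2.20-fold), whose second probe set was at -0.81. Ccr6 had 0.81. The lineage factor Sox13 had 229 and 182 (log2 ratio -0.33), the scavenger receptors Cd163l1 and 5830411N06Rik had -0.10 and 0.16, and Il17a was below the floor on both arrays.

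**Figure D4:**
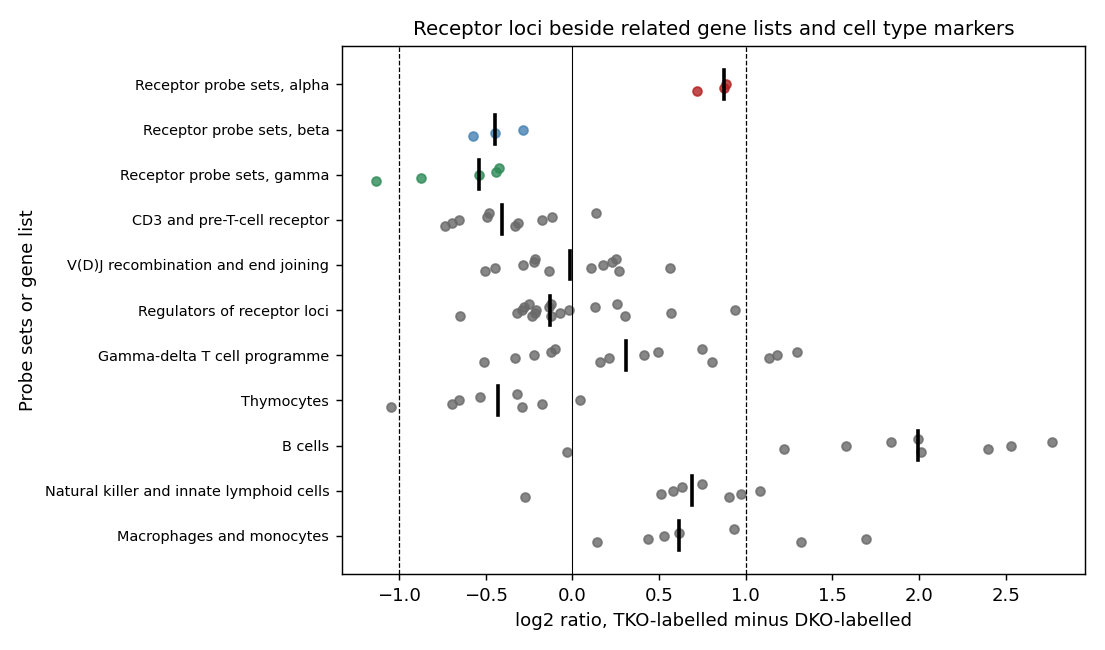
log2 ratios (TKO-labelled minus DKO-labelled) of the measured receptor probe sets by locus and of the measured genes of 4 related lists and 4 marker lists, with each row's median as a black bar and 2-fold as dashed lines. The beta, gamma and CD3 medians lie at -0.45, -0.54 and -0.41, the alpha median at 0.87 and the B cell median at 1.99.

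Markers of other cells moved with the label as well, and their part in the receptor ratios was not tested. Thymocyte markers were present: 8 of 9 read genes were measured, with a summed signal of 71378 under the DKO label and 48751 under the TKO label and a median of -0.43. Cd3e, Cd3g and Ptcra stand in both this list and the CD3 list. Il2ra, the CD25 chain found on early thymocytes, was 2.07-fold lower, and -0.98 on the log2 scale after lowess. Cd4 was below the floor on both arrays, and Cd8a had 616 and 635. Over all measured genes, 3.58% were at least 2-fold higher and 0.532% lower. B cell markers were measured for 9 of 9 read genes, with 8 at least 2-fold higher, a median of 1.99 and a summed signal of 19950 and 40413. The exception was Ighm at -0.03, although another of its probe sets was at 2.13. The second Pax5 probe set was at 0.24. Natural killer and innate lymphoid markers had 1 of 8 at least 2-fold higher, a median of 0.69 and a summed signal of 24166 and 22401, which is lower under the TKO label because the granzyme gene Gzma (21801 and 18012), most of that sum, had a log2 ratio of -0.28. Macrophage and monocyte markers had 2 of 7 measured genes higher, a median of 0.61 and a summed signal of 1943 and 4298, with Cd14 below the floor on both arrays. None of the 3 erythroid markers read reached the floor of either array.

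The immunoglobulin loci, which are assembled by the same recombinase in B cells, had a median on the other side of 0 from the beta and gamma medians. Of 51 immunoglobulin segment probe sets, taken by symbol after the receptor values were seen, 36 were measured, of which 12 passed 2-fold upwards, 1 downwards and 23 neither way, around a median of 0.49. Over all measured probe sets, 2.91% passed 2-fold upwards and 0.578% downwards. The difference between the receptor and immunoglobulin probe sets was not tested, since each label has 1 array.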

How the data were processed

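The comparison was of 2 arrays, 1 titled DKO and 1 titled TKO. The deposited values are linear intensity values, 1 for each probe set, made with MAS5 per the submitters' processing notes, without version or settings; both arrays had a mean of 497 once 2% was trimmed at either end. Their number limits the precision. Probe sets were named by the platform annotation, which gave 34945 probe sets 1 gene, 932 several and 9160 none. Of the 18 receptor probe sets, 17 had 1 gene and 1 had several, and all 18 matched by Entrez ID to a RefSeq table of assembly GRCm38.p6, used for symbols, chromosome and gene order only. Ratios, floors and counts were computed with pandas 2.3.3, numpy 2.4.6 and statsmodels 0.14.6 under Python 3.11.15, plotted with matplotlib 3.10.9, and the procedure was tested on simulated data. Members, gene lists and named genes (probe sets past or near 2-fold, the extremes of each locus, up to 4 members of each list and the CD3, Ptcra, Rag and Dntt genes) were chosen with earlier results of these data known. Genes of the lists were read only through probe sets with 1 gene. Alternatives were the median ratio set to 0, quantile normalization, lowess (span 0.3), the 25th or the 75th percentile as floor, leaving out _x_at and _s_at probe sets, and leaving out probe sets of several genes.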

Additional observations from a re-analysis of the deposited data

How the results depend on the processing

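Each of the 11 measured receptor probe sets kept its sign under the scaling and floor settings in which it was measured. Without the _x_at and _s_at probe sets the count of gamma probe sets at least 2-fold lower was 0, and over all loci it was 0, since the 1 counted is of the _x_at kind. With the 25th percentile as floor, the alpha median was 0.40, because 6 rather than 3 alpha probe sets were then measured. Of the 70 values of single probe sets under an alternative, 34 equal the main value, since leaving out other probe sets, or a floor below both signals, cannot change a ratio. Of the other 36, 35 moved by less than 0.21, the robust SD of a single probe set. The 1 that moved by more was that of Trbv1 1433108_at, at -0.10 with the 75th percentile as floor. Over all probe sets, the 25th-percentile floor counted 2200 higher and 1203 lower, and the 75th-percentile floor 217 and 27, against 696 and 138. The floor stands in for detection calls and shrinks ratios near it. No paired analysis was possible because each label has 1 array.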
